A study of Cricetulus griseus with 24 samples.

Results

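The genes described here are 8 genes of the extracellular matrix and its processing, Postn, Bgn, Fn1, Sparc, Tnc, Lox, Rcn3 and Sulf2, taken by name from 26776 gene names in the count tables. Their choice was made with earlier results of these data known. They were followed in LR73 phagocytes, a hamster line derived from Chinese hamster ovary cells and described in the labels as fibroblasts, in 24 bulk RNA libraries that fall into 6 groups of 4. In the first experiment, phagocytes were left alone (control), given cytochalasin D, given apoptotic cells, or given both; cytochalasin D blocks actin polymerization and with it the engulfment of whole corpses. In the second, LR73 cells that were either wildtype or deficient in Slc12a2 received apoptotic cells for 2 h, and phagocytes positive for CypHer5E, a dye that fluoresces in acid compartments, were sorted before RNA was taken. The apoptotic cells were human Jurkat T cells killed with ultraviolet C light (1500 mJ) and kept for 4 h. NKCC1, which carries sodium, potassium and chloride into cells together, is the product of Slc12a2. How the deficient line was made, and whether it is 1 clone, is not given in the sources used here, so that a difference by genotype and a difference between lines cannot be told apart. No deficient cells without apoptotic cells and no unsorted deficient cells were analysed here.

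Matricellular proteins are secreted into the matrix but act mainly as signals that tune adhesion, while proteoglycans carry long sulfated sugar chains that bind growth factors. Mesenchymal cells lay down such proteins, and the composition of the matrix changes in wound repair, fibrosis and tumour stroma. Among the 8 genes, Postn (periostin), Sparc and Tnc (tenascin-C) encode matricellular proteins, Fn1 encodes the fibre-forming glycoprotein fibronectin, and Bgn encodes biglycan, a small leucine-rich proteoglycan. Lox encodes lysyl oxidase, which crosslinks collagen and elastin, Sulf2 encodes an extracellular sulfatase that trims heparan sulfate chains, and Rcn3 encodes a calcium-binding protein of the secretory pathway.

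Libraries of the first experiment held 8272232 to 18911353 counted fragments and those of the second 22758587 to 28450594, so that 3 counts, taken as the lowest level that can be read, equalled 0.156 to 0.368 and 0.108 to 0.133 CPM (counts scaled to library size). Slc12a2 itself stood at 91.2 to 103 CPM in the wildtype libraries and at 22.4 to 26.2 CPM in the deficient ones, a log2 difference of -1.97 ± 0.06 (SE) with an adjusted p of 1.14e-12 in edgeR's quasi-likelihood test, so its transcript was reduced and not absent. All 12 fibroblast and mesenchymal markers had counts in controls. Vim (vimentin) was abundant at 4334 CPM, followed by S100a4 at 102, Pdgfra at 49.1 and Cdh2 at 39.7 CPM. Col1a1, which defines collagen-producing fibroblasts, had only 3 counts in the 4 control libraries together. Summed levels of 15 T cell markers were 34.9 to 37.2 CPM in controls and 42.2 to 45.1 CPM with apoptotic cells. Tcf7 and Lat made up most of that sum in every group, including those without Jurkat cells. Lck had 2 counts in the controls and 198 with apoptotic cells, and it had 6 and 5 counts in the wildtype and deficient sorted groups. Cd3g, Cd2 and Cd5 had no count in any group. Myeloid marker sums stayed between 1.24 and 4.10 CPM and epithelial sums between 1.06 and 8.03 CPM over the 24 libraries.

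Of the 8 genes, 7 were measurable and Lox was not. Lox had 1 count in 1 control library, 4 counts in 1 library with apoptotic cells, and none in the other 22 libraries, and it was left out of every test by the filter on low counts. Its gene model in the count tables held 639 bases of exon, and whether reads from other parts of the transcript were missed was not tested. Per length of exon (RPKM, CPM per kilobase), Rcn3 led the untreated cells at 268 ± 21.5 (SD, n = 4). It was followed by Sparc at 175 ± 5.61 and Fn1 at 122 ± 9.75, and the libraries of these 3 genes did not overlap. Postn at 25.9 ± 0.873, Bgn at 11.7 ± 0.565, Sulf2 at 8.67 ± 0.457 and Tnc at 0.724 ± 0.0507 RPKM made up the lower tier, again without overlap between neighbours. The means kept this order in the other 3 groups of the experiment, but Bgn and Sulf2 libraries overlapped in both groups given cytochalasin D. In wildtype sorted phagocytes the order was different. Rcn3 again led at 515 ± 21.3 RPKM, but Postn came next at 181 ± 17.03, ahead of Fn1 at 148 ± 5.89 and Sparc at 136 ± 6.37, and Tnc was lowest at 1.62 ± 0.0999. Neighbours in this order did not overlap, although Fn1 and Sparc came close, with a lowest Fn1 library of 144.0 and a highest Sparc library of 143.8 RPKM. The 2 experiments were normalized apart and differ in sorting, so these levels are set side by side with no test.

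The genotype comparison asked how matrix genes differ between engulfing phagocytes with and without Slc12a2. Of the 7 measurable genes, 6 were lower in the deficient cells and none was higher: Sulf2 and Postn fell to a small remnant, Bgn to 10.1% and Rcn3 to 27.8% of the wildtype level, and Fn1 and Sparc less far. Tnc did not pass the test. Deficient and wildtype cells differed in many genes. Of 13050 tested genes, 21.3% were called lower and 21.1% higher at an adjusted p under 0.05 (edgeR). The sizes of the differences are therefore more telling than the calls. In 6 of the 7 genes every deficient library lay below every wildtype library, as it did in 20.4% of all tested genes. The median log2 difference of the 7 genes was -1.85, beside -0.0018 for all genes, and a 4-fold or larger drop was seen in 154 genes, 1.18% of those tested, among them Sulf2, Postn and Bgn. Because the genes were chosen with earlier results of these data known, these values describe the set and are no test of it.

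**Figure D1:**
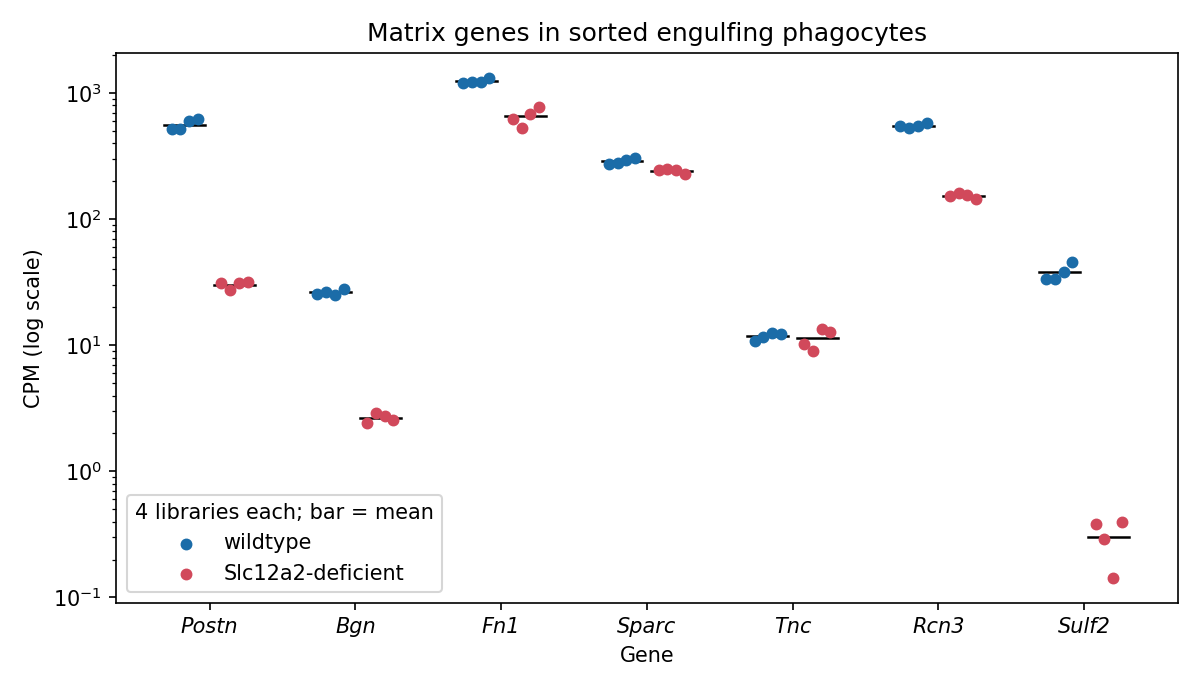
Level of each measurable matrix gene in CPM (log scale) in sorted engulfing phagocytes, with 1 point per library, 4 wildtype and 4 Slc12a2-deficient, and bars at the group means. The gap between genotypes is widest for Sulf2, Postn and Bgn, small for Sparc, and the Tnc libraries overlap.

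Sulf2, the heparan sulfate 6-O-endosulfatase, was nearly lost. The 4 wildtype libraries held 859, 778, 1027 and 1155 counts of it (33.7, 33.6, 38.4 and 45.9 CPM), and the deficient libraries held 9, 8, 4 and 9 counts (0.383, 0.291, 0.144 and 0.400 CPM). Every deficient library was above the floor of 3 counts but only by a few counts. The log2 difference was -6.98 ± 0.18 (SE; adjusted p 3.09e-13, edgeR), which leaves 0.795% of the wildtype level and ranks 14 by size among 13050 genes. Because the deficient level rests on 30 counts in all, the fold is less certain than the drop. The span of the Sulf2 gene model (22 exon entries over 86.9 kb) overlaps the span of Ncoa3 on its scaffold, and counting used no strand option. Only the outer spans were compared, and whether exons of these genes overlap was not tested. The 18 other tested genes of that scaffold had a median log2 difference of -0.12 and ranged from -0.86 to 0.14, with 7 called lower and 1 higher. The part of the shared position in the Sulf2 value was not tested.

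Postn, an integrin-binding matricellular protein, stood at 517, 521, 599 and 620 CPM in wildtype and at 31.1, 27.5, 31.1 and 31.8 CPM in deficient libraries. The lowest wildtype library lay far above the highest deficient one. The log2 difference was -4.22 ± 0.07 (SE; adjusted p 7.14e-15, edgeR), an 18.6-fold drop that ranks 55 by size. Postn made up 20.6% of the summed CPM of the 8 genes in wildtype cells and 2.78% in deficient cells. In the first experiment, LR73 cells given apoptotic cells averaged 90.7 CPM of Postn. That level lies below every wildtype library and above every deficient library here. The experiments were normalized apart and differ in sorting, so these levels were not tested against each other.

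Bgn, the small proteoglycan of the set, gave 25.7, 26.6, 25.3 and 28.2 CPM in wildtype and 2.42, 2.92, 2.73 and 2.58 CPM in deficient libraries. Both groups were tight and lay well apart. The log2 difference was -3.30 ± 0.08 (SE; adjusted p 2.87e-13, edgeR), a 9.88-fold drop. The 14 other tested genes on its scaffold had a median log2 difference of 0.17 and ranged from -1.08 to 0.61, with 2 called lower and 8 higher.

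Rcn3, of the CREC family of calcium-binding proteins, gave 547, 529, 552 and 584 CPM in wildtype and 152, 162, 155 and 146 CPM in deficient libraries. The groups did not overlap and differed 3.60-fold, with a log2 difference of -1.85 ± 0.05 (SE; adjusted p 2.87e-13, edgeR). Its gene model is short, with 6 exon entries over 6.24 kb, and shares its scaffold with Nosip and Fcgrt. Both of these were lower as well. Nosip, an interactor of nitric oxide synthase, had a log2 difference of -1.21 (adjusted p 2.31e-09, edgeR), and Fcgrt, the neonatal Fc receptor chain, had one of -1.45 (adjusted p 7.06e-10, edgeR). The part of the shared position in these values was not tested.

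Fn1, the fibronectin gene, gave 1215, 1235, 1219 and 1321 CPM in wildtype and 629.6, 533, 679 and 774 CPM in deficient libraries. The deficient libraries were lower throughout and spread more widely, with a coefficient of variation of 15.4% against 3.98%. Their lower values came from the earlier library numbers in the titles and their higher values from the later ones. The part of library number in this spread was not tested. The log2 difference was -0.93 ± 0.08 (SE; adjusted p 2.39e-07, edgeR), leaving 52.4% of the wildtype level. In a fit with a block on library number it was -0.94 (adjusted p 3.56e-10, edgeR). Sparc, a collagen-binding matricellular protein, gave 276, 279.9, 295 and 306 CPM in wildtype and 245, 249.95, 245 and 227 CPM in deficient libraries. Its groups were apart by less, at a log2 difference of -0.26 ± 0.05 (SE; adjusted p 0.00039, edgeR), which ranks 4527 by size among the tested genes. The 18 other tested genes on the Sparc scaffold ranged from -3.57 to 0.81, with 7 called lower and 4 higher. Tnc, an antiadhesive matricellular protein, gave 10.9, 11.7, 12.4 and 12.4 CPM in wildtype and 10.2, 8.96, 13.4 and 12.9 CPM in deficient libraries. These libraries overlapped, and the log2 difference of -0.06 ± 0.11 (SE) had an adjusted p of 0.713 (edgeR). In bulk RNA, fewer cells expressing a gene and less RNA of it per cell cannot be told apart.

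In sum, the 8 genes accounted for 2730 ± 135 CPM in wildtype and 1094 ± 89.2 CPM in deficient cells (SD, n = 4). The per-length order in deficient cells was Rcn3 at 143 ± 6.34 RPKM, Sparc at 114 ± 4.62, Fn1 at 77.5 ± 11.9, Postn at 9.75 ± 0.621, Bgn at 1.84 ± 0.145, Tnc at 1.56 ± 0.290 and Sulf2 at 0.0495 ± 0.0191. Bgn and Tnc overlapped, and the other neighbours did not. Sulf2 thus moved below Tnc, and Postn moved below Sparc and Fn1. Markers of mesenchymal cells did not all move with these genes: Vim was at 2962 CPM in wildtype and 3402 CPM in deficient cells, while Col3a1 (1.57 against 0.272 CPM) and Pdgfrb (6.71 against 1.38 CPM) were lower. Of 7 tested mesenchymal markers, 2 were called higher and 4 lower. Summed T cell markers were at 29.5 to 32.2 CPM in wildtype and 23.3 to 28.1 CPM in deficient libraries, with Lat and Cd28 called lower and Tcf7 called higher, and their part in the genotype values was not tested.

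Other matrix genes differed by genotype too, in both directions, and none of those tested fell as far as Bgn. Across 6 lists that leave out the 8 genes, 115 genes were tested, 21 were called higher and 46 lower (58.3% beside 42.5% of all tested genes), and their median log2 difference was -0.11 beside -0.0018 for all genes. Of 14 other matricellular genes, 1 rose and 6 fell. Cyr61, a CCN protein, rose by 0.55, and Spp1 (osteopontin) fell by 0.93 on the log2 scale, from 44.3 ± 4.06 to 23.2 ± 3.60 CPM. Of 16 other proteoglycan cores, 1 rose and 6 fell. Decorin, which like biglycan is a small leucine-rich proteoglycan (Dcn), fell by 0.89 and Cspg4 (NG2) by 0.80 on the log2 scale, while the basement membrane proteoglycan Agrn rose by 0.34.

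Of 31 genes that build or edit glycosaminoglycan chains, among them those that make the heparan sulfate on which Sulf2 acts, 5 rose and 11 fell. B3galt6, which adds to the linker that joins chain and core, rose by 0.72, and Ext1, a heparan sulfate polymerase, rose by 0.70 on the log2 scale. The 6-O-sulfotransferase Hs6st1, which adds the kind of sulfate that Sulf2 removes, rose by 0.28, from 169 ± 3.99 to 205 ± 17.6 CPM. The dermatan sulfate epimerases Dsel and Dse fell by 0.65 and 0.45. With Lox unmeasured, crosslinking and elastic fibre genes gave 3 higher and 8 lower of 18. Loxl1, a lysyl oxidase relative, fell by 1.54 on the log2 scale, from 53.7 ± 0.857 to 18.4 ± 2.54 CPM, and the microfibril gene Fbn1 fell by 1.46, whereas Loxl4 rose by 0.57.

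Of 13 basement membrane and adhesive glycoprotein genes, 4 rose and 6 fell, among them Lama2, which fell by 1.14, and Lama3, which rose by 0.56 on the log2 scale. Of 23 CREC and matrix folding genes, 7 rose and 9 fell. The list holds 3 tested CREC genes besides Rcn3, and each was called higher: Calu (calumenin) rose by 0.91, from 545 ± 13.1 to 1025 ± 35.7 CPM, Sdf4 rose by 0.35 and Rcn1 rose by 0.30. Rcn1 was named after its value was seen. The lysyl hydroxylase Plod1 fell by 0.54 while Plod2 rose by 0.34 on the log2 scale. All changes named in these lists passed an adjusted p under 0.05 in edgeR's quasi-likelihood test.

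**Figure D2:**
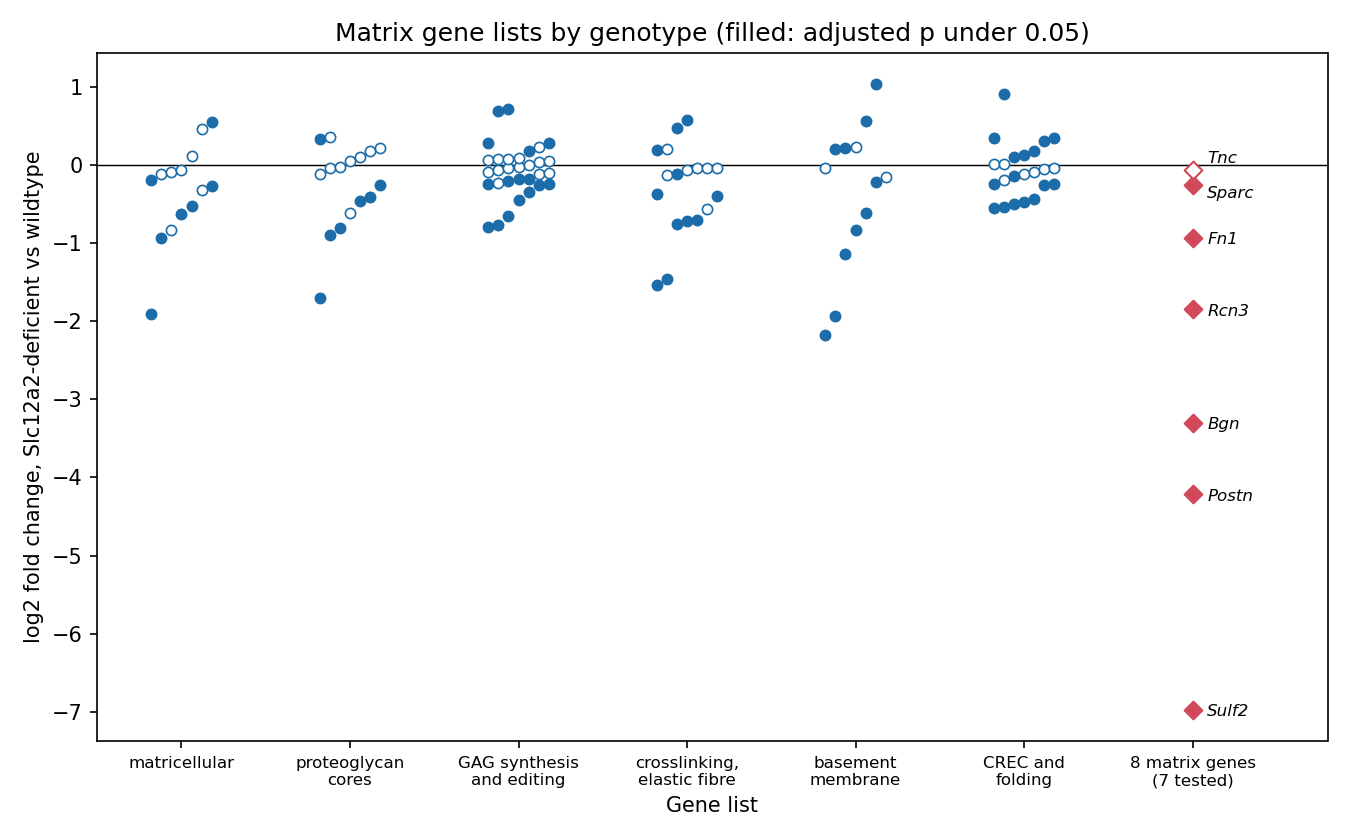
Log2 fold change, Slc12a2-deficient against wildtype, of every tested gene in 6 matrix gene lists (circles) and of the 7 measurable matrix genes (diamonds), with filled symbols at an adjusted p under 0.05; sideways offsets only separate points. Sulf2, Postn and Bgn lie at -6.98, -4.22 and -3.30, below the genes of the 6 lists. Genes and lists were chosen with earlier results of these data known.

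The first experiment asked how the same genes respond to apoptotic cells, to cytochalasin D and to both. Differences there were small in size: the 8 genes summed to 1843 ± 101 CPM in controls, 1801 ± 26.2 with cytochalasin D, 1890 ± 74.6 with apoptotic cells and 1822 ± 34.6 with both (SD, n = 4). Fn1 supplied a mean of 52.1% to 57.2% of that sum, by group. Rcn3, Sulf2 and Postn were the genes that passed any test. Bgn, Fn1, Sparc and Tnc passed none of the 5 tests in the fit over all 16 libraries.

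**Figure D3:**
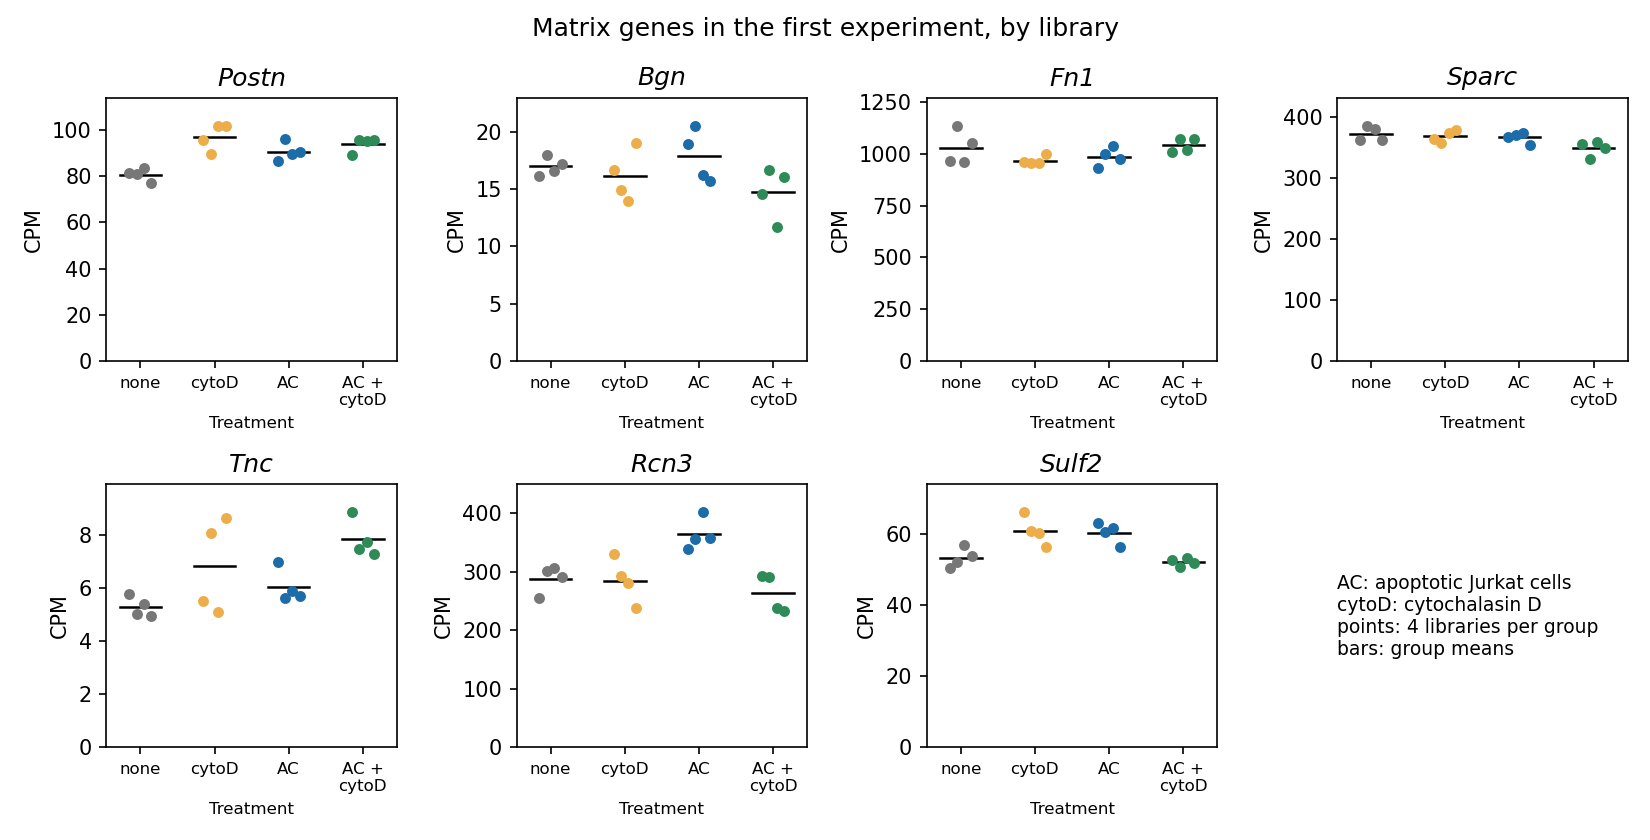
Level of each measurable matrix gene in CPM (linear axes from 0) in the 4 groups of the first experiment, with 1 point per library and bars at the group means. Rcn3 is highest in the 4 libraries with apoptotic cells alone, and Sulf2 is higher with either treatment alone than with both.

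Apoptotic cells alone raised 3 of the 7 genes and lowered none, where 6.97% of 13106 tested genes were called higher and 6.68% lower. The median log2 difference of the 7 genes was 0.17, beside 0.0030 for all genes. Rcn3 gave 255, 301, 306 and 290.1 CPM in controls and 339, 356, 401 and 357 CPM with apoptotic cells. No library overlapped, and the log2 difference was 0.34 ± 0.08 (SE; adjusted p 0.00979, edgeR). Postn gave 81.3, 80.8, 83.5 and 77.0 CPM in controls and 86.6, 96.0, 89.8 and 90.3 CPM with apoptotic cells, again without overlap. Its log2 difference was 0.17 ± 0.05 (SE; adjusted p 0.0283, edgeR).

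Sulf2 gave 50.3, 52.3, 56.98 and 53.8 CPM in controls and 63.1, 60.6, 61.6 and 56.4 CPM with apoptotic cells. The highest control library lay above the lowest treated one, and the log2 difference was 0.18 ± 0.06 (SE; adjusted p 0.0395, edgeR). The calls for Postn and Sulf2 depended on which libraries were in the fit. Postn lost its call without replicate 2, 3 or 4 of the apoptotic-cell group, or 1, 2 or 4 of the controls (adjusted p 0.0536 to 0.0932, edgeR). Sulf2 lost its call without replicate 1, 2 or 3 of the apoptotic-cell group or 1, 2 or 4 of the controls (adjusted p 0.0699 to 0.134, edgeR). The call for Rcn3 held in each of these fits, with an adjusted p of 0.0133 to 0.0473 (edgeR). The T cell marker Lck stood at 0.0259 CPM in controls and 3.20 CPM with apoptotic cells, and the part of Jurkat RNA in these values was not tested.

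Cytochalasin D alone raised Postn and Sulf2 and lowered none of the 7 genes, where 13.5% of tested genes were called higher and 12.8% lower. Postn gave 95.7, 89.6, 102 and 102 CPM with the drug, all above the controls, with a log2 difference of 0.27 ± 0.05 (SE; adjusted p 0.000284, edgeR). Sulf2 gave 66.1, 60.9, 60.4 and 56.5 CPM, of which the lowest fell within the control range, with a log2 difference of 0.19 ± 0.06 (SE; adjusted p 0.0149, edgeR). That call was lost without control replicate 1 or cytochalasin D replicate 1 (adjusted p 0.0629 and 0.0759, edgeR). Tnc split with the drug, at 5.52, 8.09, 5.09 and 8.66 CPM against 4.95 to 5.76 CPM in controls, and its log2 difference of 0.37 ± 0.16 (SE) had an adjusted p of 0.0956 (edgeR). Without cytochalasin D replicate 3 it passed, at 0.49 with an adjusted p of 0.0276 (edgeR). Rcn3 libraries with the drug ranged from 237 to 330 CPM around the controls, with a log2 difference of -0.02 ± 0.09 (SE; adjusted p 0.926, edgeR).

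Under cytochalasin D, adding apoptotic cells lowered Sulf2 and raised none of the 7 genes, where 4.82% of tested genes were called higher and 3.79% lower. Lck stood at 0 CPM with the drug and 3.07 CPM with both treatments, and the part of Jurkat RNA in these values was not tested. Sulf2 gave 52.8, 50.7, 53.4 and 51.9 CPM with both treatments, each below the cytochalasin D libraries, with a log2 difference of -0.22 ± 0.06 (SE; adjusted p 0.0185, edgeR). The call was lost without replicate 4 of the group with both treatments or replicate 1 of cytochalasin D (adjusted p 0.0527 and 0.0754, edgeR). Fn1 was at 954 to 999 CPM in the drug libraries and at 1010 to 1073 CPM in those with both, without overlap, but its log2 difference of 0.11 ± 0.04 (SE) had an adjusted p of 0.149 (edgeR) and was not called.

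Set against apoptotic cells alone, adding cytochalasin D lowered Rcn3 and Sulf2 and raised none of the 7 genes, where 16.4% of tested genes were called higher and 16.1% lower. Rcn3 gave 293, 290.4, 237 and 232 CPM with both treatments, each below the 339 to 401 CPM of apoptotic cells alone. The log2 difference was -0.47 ± 0.09 (SE; adjusted p 0.000167, edgeR). Sulf2 had a log2 difference of -0.21 ± 0.06 (SE; adjusted p 0.00818, edgeR), again without overlap. Bgn gave 14.5, 16.7, 11.7 and 16.0 CPM against 18.97, 20.5, 16.2 and 15.7 CPM, and its log2 difference of -0.28 ± 0.12 (SE) had an adjusted p of 0.0716 (edgeR). It passed without apoptotic-cell replicate 4 or without replicate 2 of both treatments (adjusted p 0.0454 and 0.0438, edgeR). Tnc was at 7.29 to 8.85 CPM against 5.64 to 6.999 CPM, without overlap, with a log2 difference of 0.39 ± 0.16 (SE; adjusted p 0.0653, edgeR). It passed without apoptotic-cell replicate 1 (adjusted p 0.0482, edgeR) and in a fit on the 8 compared libraries (adjusted p 0.0359, edgeR). Of the 7 tested mesenchymal markers, Twist1 was called higher here and 5 were called lower (Vim, Pdgfra, Pdgfrb, S100a4 and Cdh2). Vim was at 4334 CPM in controls, 3278 with the drug, 5420 with apoptotic cells and 3247 with both treatments. For the other comparisons, the markers called higher and lower were 1 and 0 with apoptotic cells alone, 1 and 2 with the drug alone, 0 and 2 with apoptotic cells under the drug, and 0 and 2 for the difference of effects. Their part in the values of Rcn3 and Sulf2 was not tested.

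The effect of apoptotic cells differed by drug for Rcn3 and Sulf2. The effects themselves were compared in 1 fit, where the difference of differences was called lower for 1.53% of tested genes and higher for 3.03%. For Sulf2 the effect was 0.18 without the drug and -0.22 with it on the log2 scale, a difference of -0.40 ± 0.08 (SE; adjusted p 0.00753, edgeR). For Rcn3 it was 0.34 without and -0.11 with the drug, a difference of -0.45 ± 0.12 (SE; adjusted p 0.0342, edgeR). The Rcn3 call was lost in 9 of the 16 fits that left out 1 library, those without replicate 3 or 4 of apoptotic cells, 3 or 4 of both treatments, 1 or 4 of the controls, or 1, 2 or 3 of cytochalasin D (adjusted p 0.0557 to 0.0911, edgeR). The Sulf2 call held in all 16, with an adjusted p of 0.00198 to 0.0223 (edgeR). Postn, at -0.22 ± 0.07 (SE; adjusted p 0.0767, edgeR), and Fn1, at 0.17 ± 0.06 (SE; adjusted p 0.125, edgeR), were not called.

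**Figure D4:**
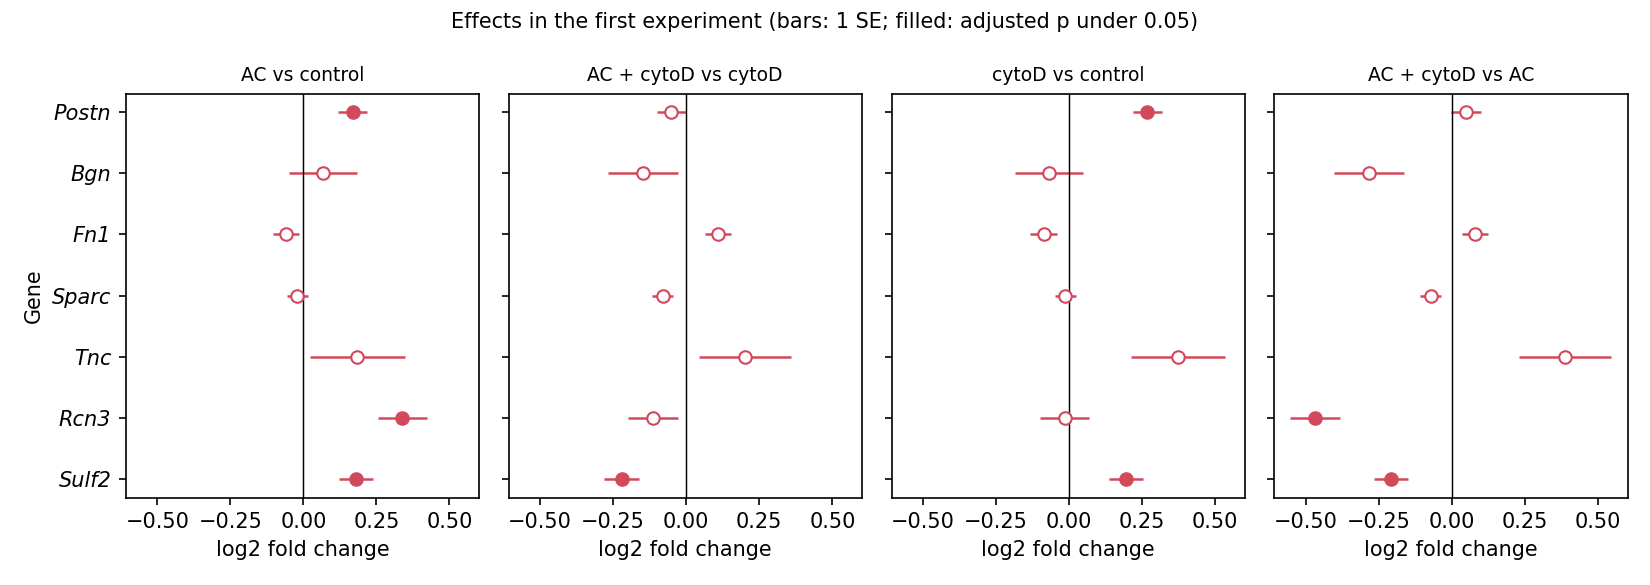
Log2 fold change of each measurable matrix gene in 4 comparisons of the first experiment, with bars of 1 SE and filled points at an adjusted p under 0.05. Sulf2 is filled in all 4 panels, to the right for each treatment alone and to the left where the other treatment was already present, and Rcn3 moves from 0.34 to -0.47 between the first and the last panel.

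Matrix genes outside the set were called in both directions under the same treatments. Of 110 tested genes in the 6 lists, 9 were higher and 2 lower with apoptotic cells alone, 10.0% in all beside 13.7% of all tested genes. With the drug alone 17 were higher and 21 lower, 34.5% beside 26.3%. With apoptotic cells under the drug 8 were higher and 7 lower, 13.6% beside 8.61%. With the drug on top of apoptotic cells 11 were higher and 33 lower, 40.0% beside 32.5%. For the difference of effects 4 were higher and 4 lower, 7.27% beside 4.56%. Thbs1 (thrombospondin-1), a matricellular gene outside the set, went from 274 ± 12.4 CPM with the drug to 978 ± 75.0 CPM with both treatments, a log2 difference of 1.84 ± 0.05 (SE; adjusted p 1.43e-17, edgeR). Loxl4, a lysyl oxidase relative, fell by 0.74 when the drug was added to apoptotic cells, from 246 ± 4.51 to 147 ± 11.1 CPM.

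Over the 16 libraries of the first experiment, Pearson's r between the log2 CPM of the 21 pairs of measurable genes had a median of -0.14 and ran from -0.60 between Fn1 and Sulf2 to 0.59 between Rcn3 and Sulf2. After subtraction of group means, which takes out any shift between groups, the median was -0.05 in that experiment (-0.35 to 0.52) and 0.01 over the 8 libraries of the second (-0.52 to 0.87, the highest between Sparc and Rcn3). Among 8119 other genes with a symbol and at least 10 CPM, the 3 with patterns most like Rcn3 over the 16 libraries were Lmna at an r of 0.98, Gas2l1 at 0.97 and Tsc22d4 at 0.96. For Postn they were Ube2q1 at 0.89, Eno2 at 0.85 and Fbxo6 at 0.85, and for Sulf2 they were Unc45a at 0.86, Rpl35a at 0.84 and Rhbdf2 at 0.82. Sparc was most like Mrps6 (0.88), Tnc most like Chd1l (0.86), Fn1 most like Mdn1 (0.80) and Bgn most like Fbxo21 (0.73). These values describe libraries that share treatments, depth and scaling, and carry no test.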

How the data were processed

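The deposited tables hold raw counts per gene name. Per the file headers, the authors used featureCounts 1.5.0 on reads aligned with STAR, and counted exon-overlapping fragments whose mates had both aligned, without regard to strand. FastQC, STAR, featureCounts and DESeq2 are named in the submitters' processing notes. Other deposited values used are the summed exon lengths per gene. Reads were 75 bp, paired-end, per the labels. For the aligner version and the genome build, the entry is "not given in the sources used here". A row with a blank name (0.0249% to 0.0445% and 1.13% to 1.65% of counts in the 2 experiments) was left out. No sequences are printed.

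The 2 experiments were analysed separately in edgeR 4.0.16 (R 4.3.3). Low genes were dropped by filterByExpr (at least 10 counts, 15 in total), libraries were scaled by TMM, and groups were compared by the quasi-likelihood F test, with Benjamini-Hochberg adjustment over all 13106 or 13050 tested genes and calls at an adjusted p under 0.05. Biological coefficients of variation were 7.04% and 6.06%. CPM are TMM-scaled, and RPKM divides them by exon length. The procedure was also run on simulated counts of independent libraries with the same dispersion for all genes. That setting is simpler than these data, and no result here rests on it. Replicates are biological, per the series text; the numbers of the first experiment come from the titles, those of the second follow accession order. Floors and counts cover counting error only.

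The 8 genes, the 6 matrix lists and the markers were chosen with earlier results of these data known. The text names all 8 genes, their 3 most correlated genes each at most, and from each list up to 3 called genes per direction with the largest change and a mean of at least 4 CPM. Slc12a2 was added as the check of the genotype label, and the named cell type markers and the scaffold neighbours were picked after their values were seen. Alternatives were DESeq2 1.42.0, scaling by relative log expression, the low-count filter dropped or set at 1 CPM in 4 libraries, the compared libraries alone, a replicate block, leaving out each library in turn, and taking out any trend along transcript length.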

Additional observations from a re-analysis of the deposited data

Results flagged for a closer look

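Among 42 sets of 4 libraries (7 genes in 6 groups), 4 held a library far from the other 3, and chance alone flags about 1 in 20 such sets. Postn was low in replicate 1 of apoptotic cells with cytochalasin D, at 89.1 CPM, and low in deficient replicate 2, at 27.5 CPM. Fn1 was high in cytochalasin D replicate 4, at 999 CPM, and Tnc was high in apoptotic-cell replicate 1, at 6.999 CPM. The effect of apoptotic cells differed between cultures with and without cytochalasin D for Rcn3, by -0.45, and for Sulf2, by -0.40 on the log2 scale, each by a test of the difference itself.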

How the results depend on the processing

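The 6 genes called lower in deficient cells were called lower in each of the 14 alternative fits of that experiment, with log2 differences of -7.12 to -6.71 for Sulf2, -4.25 to -4.17 for Postn, -3.35 to -3.26 for Bgn, -1.87 to -1.81 for Rcn3, -1.01 to -0.84 for Fn1 and -0.27 to -0.22 for Sparc. With the filter on low counts removed, genes called with apoptotic cells went from 3 to 1 of the 7, since Postn and Sulf2 missed the threshold (adjusted p 0.0607 and 0.0828, edgeR), and the count of all genes called for the difference of effects went from 598 to 928. Leaving out 1 library at a time, the called members of the 7 were 1 to 3 with apoptotic cells, 0 to 1 with apoptotic cells under cytochalasin D, 1 to 3 with cytochalasin D and 1 to 2 for the difference of effects; all genes called were 1103 to 1700 (1789 with all libraries) and, for the difference, 251 to 1645. The lowest counts came without apoptotic-cell replicate 3, and 1645 came without cytochalasin D replicate 4. Uncalled values changed sign: removing the length trend gave 0.028 for Fn1 with apoptotic cells, -0.029 for Fn1 when the drug was added to them and -0.057 for the Tnc difference of effects, and leaving out libraries gave -0.0075 to 0.13 for Bgn with apoptotic cells, -0.099 to 0.059 for Rcn3 and -0.031 to 0.0035 for Sparc with the drug, -0.10 to 0.16 for the Tnc difference of effects, and -0.14 to 0.045 for Tnc by genotype. Removing the length trend also took Fn1 past the threshold with the drug, at -0.11 (adjusted p 0.0345, edgeR). The cause was not tested. Replicate numbers of the first experiment paired the libraries weakly at most. Of 24 same-number pairs, 3 had deviations correlated above 0.1 (r up to 0.23), with a median of 0.0048 beside -0.0065 for other pairs. Of the 16 libraries, 7 correlated best with a library of their own number. A replicate block changed no call of the 7 genes there: called members stayed 3, 2, 1, 2 and 2. All genes called for the difference of effects went from 598 to 753 with it. No paired analysis was possible by replicate in the second experiment because its numbers follow accession order. The earlier library numbers there gave the lower values for Fn1 and Tnc in deficient cells and for Postn and Sulf2 in wildtype cells. That split was not seen for every gene and group. A block on library number kept the same 6 calls and took all genes called there from 5545 to 6226. Depth limits Lox, at 0 to 4 counts per library, and the deficient level of Sulf2.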
